A study of Rattus norvegicus with 22 samples.

Results

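The hippocampus on the injured side was compared between rats killed 14 days and rats killed 1 day after traumatic brain injury (TBI). The contrast takes the 4 TBI day 14 libraries against the 4 TBI day 1 libraries, chosen by their labels alone, which is 8 of the 14 RNA-seq libraries and 8 of the 22 samples of the series. All animals were adult male Sprague-Dawley rats. Lateral fluid percussion, a pulse of fluid driven onto the exposed dura through a craniectomy over the right hemisphere, was set to give a moderate injury. The other RNA-seq libraries came from 2 sham rats at day 1 and 4 sham rats at day 14, which had the surgery and anesthesia without the pulse, so all 4 groups carry the surgery. The labels number the libraries as replicates and give no age or processing batch; p-values measure the spread between these libraries.

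Injured hippocampus is known to pass from an acute phase, in which astrocytes and microglia react, leukocytes enter and stress genes are induced, to a later phase of debris clearance and tissue repair. Astrocytes react under cytokines of the gp130 family, which signal through STAT3. Microglia, the resident macrophages of the brain, lose part of their resting gene program when activated, and phagocytic states are marked by TREM2, complement and MHC class II. Neurons lower many receptor and channel transcripts after injury, and these can recover.

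The 8 libraries held 17183319 to 23159858 counted reads at TBI day 1 and 15065540 to 19781459 at TBI day 14. A principal component analysis of the 8 libraries put all 4 day 1 libraries on one side of the first component (55.1% of the variance) and all 4 day 14 libraries on the other, while TBI day 1 replicate 1 stood apart on the second (18.3%). Levels are given as log2 CPM, the log2 of reads scaled to library size (CPM), and marker lists as the log2 of their summed CPM. Choroid plexus markers summed to 5.32, 10.65, 12.93 and 5.11 in TBI day 14 replicates 1 to 4, to 4.90 to 5.85 at TBI day 1, to 13.16 and 5.09 in the pair of sham day 1 libraries and to 5.10 to 5.43 at sham day 14, so TBI day 14 replicates 2 and 3 and sham day 1 replicate 1 held choroid plexus RNA. The defining marker Ttr, which encodes transthyretin, measured 3.51, 10.46, 12.78 and 2.31 at TBI day 14 and 2.14, 1.96, 3.03 and 2.02 at TBI day 1. Blood cell markers summed to 8.82 to 10.12 at TBI day 1 and 6.61 to 7.29 at TBI day 14, against 8.09 to 9.10 and 6.61 to 7.99 in sham. Markers of hippocampal subfields were detected in every library, summed to 9.50, 10.31, 10.55 and 10.89 at TBI day 1 and 10.98 to 11.25 at TBI day 14, and were lowest in TBI day 1 replicate 1. That library also had the highest endothelial sum of its group (11.05, against 10.24 to 10.46) and the highest myelin sum (14.11, against 12.45 to 13.50). The part of these differences in the gene results was not tested unless a value is given.

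**Figure D1:**
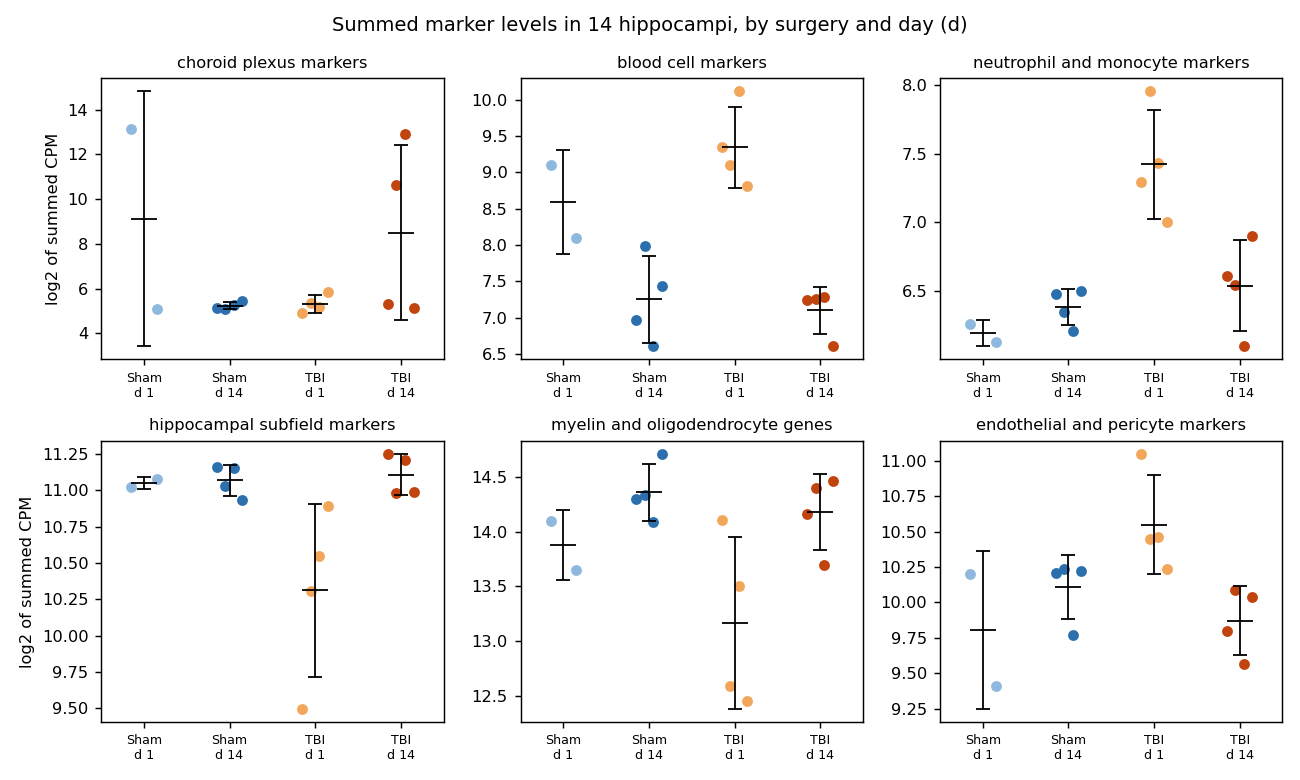
Summed level of 6 marker lists (y axis, log2 of summed CPM) in each of the 14 libraries, by surgery and day (x axis); points are libraries, horizontal lines are group means and bars are SD. Choroid plexus markers are high in 2 of the 4 TBI day 14 libraries and 1 of the 2 sham day 1 libraries, and blood markers are higher in all 4 TBI day 1 libraries than in all 4 TBI day 14 libraries.

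A count of 0 for a list is followed, in brackets, by its members at an unadjusted p under 0.05 in edgeR and by those that limma-voom and DESeq2 called. Of 17172 genes in the table, 12422 had enough counts to be tested in the 8 TBI libraries. At an adjusted p under 0.05, 1928 genes (15.5%) were higher at day 14 than at day 1 and 2550 (20.5%) were lower. At an additional 2-fold change, 662 genes (5.33%) were higher and 914 (7.36%) lower. All 4 day 14 libraries lay above all 4 day 1 libraries for 2108 genes (17.0%) and below them for 2416 (19.4%). The median log2 fold change was 0.81 among the genes called higher and -0.81 among those called lower, against -0.02 over all tested genes. In bulk tissue, fewer cells of a type and less RNA per cell cannot be told apart. Without TBI day 14 replicates 2 and 3, called the choroid plexus pair from here on, 844 genes were higher and 1213 lower in a fit of 6 libraries. Below, a list's count without the pair is given where a count of 4 or more moved by over 1.5 times.

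Part of the change over time was also present in sham rats. Sham day 14 against sham day 1, tested in a fit of all 14 libraries, gave 1014 genes higher (7.88%) and 1450 lower (11.3%). Its group means share no library with the TBI contrast, but the TBI libraries help set its spread, scaling and gene filter. The 2 tests are therefore not independent: without TBI day 1 replicate 1 the sham counts were 1507 and 1924. Of the 1928 genes higher at TBI day 14, 528 were also called higher at sham day 14 (27.4% of the TBI list and 52.1% of the sham list). Of the 2550 genes lower at TBI day 14, 956 were also called lower in sham (37.5% of the TBI list and 65.9% of the sham list). Over all 12422 tested genes, the TBI and sham changes correlated with a Pearson r of 0.33. The sham change had the same sign for 82.3% of the genes higher in TBI and 82.8% of those lower. Its median was 0.39 and -0.46 log2 in these genes, against 0.81 and -0.81 in TBI. The share with the same sign over all tested genes was not counted, so 82.3% and 82.8% have no background beside them. The difference between both changes, TBI minus sham, passed the test upward for 186 genes (1.44% of 12875 tested) and downward for 288 (2.24%), or 3.68% in either direction. Among them were 149 of the genes higher at TBI day 14 and 265 of those lower. Without the 3 libraries with choroid plexus RNA, 87 and 189 genes passed. Any processing batch that follows the day cannot be told apart from time after surgery, since no label gives one. With 2 sham day 1 libraries, 1 of them holding choroid plexus RNA, a missing call in this test does not show that the changes were alike.

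**Figure D2:**
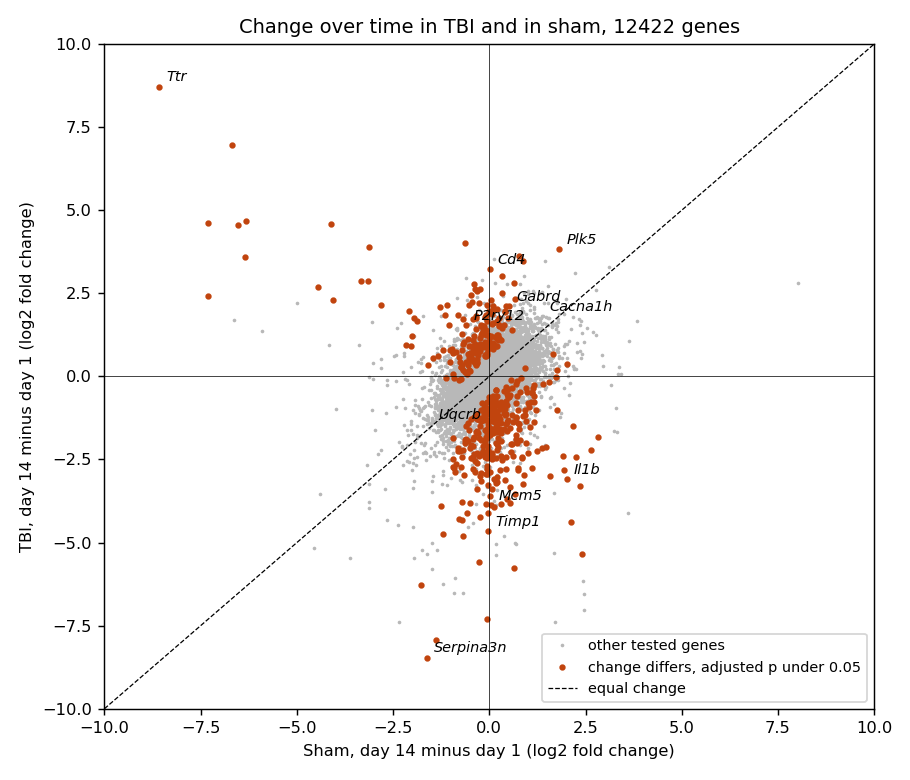
Log2 fold change from day 1 to day 14 in TBI (y axis) against that in sham (x axis) for 12422 tested genes; red-brown points are genes whose change differed between TBI and sham at an adjusted p under 0.05, and the dashed line marks equal change. Serpina3n, Timp1, Il1b and Mcm5 lie far below the line and Cd4 and P2ry12 above it, while Uqcrb lies near it; Ttr, at the upper left, follows the 3 libraries with choroid plexus RNA.

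The 12 largest falls among well-measured genes included those of protease inhibitors, an acute-phase protein and a chemokine. Serpina3n, a secreted protease inhibitor of reactive astrocytes, measured 8.05, 8.58, 7.61 and 7.92 log2 CPM in TBI day 1 replicates 1 to 4 and 0.30, -0.31, -0.41 and -0.44 at day 14. All day 14 libraries were lower than any day 1 library, a 352-fold difference (log2 fold change -8.46 ± 0.30 SE, adjusted p = 1.71e-07). Lcn2, which binds bacterial siderophores and is an acute-phase protein, measured 9.32, 8.28, 8.88 and 8.94 at day 1 and 2.68, 2.46, 3.36 and 1.59 at day 14 (-6.27 ± 0.40, adjusted p = 9.71e-06) and was still 2.77 log2 above sham at day 14 (adjusted p = 0.002). Timp1, an inhibitor of matrix metalloproteinases, fell from 7.81, 8.17, 7.83 and 7.94 to 3.65, 2.79, 2.91 and 3.66 (-4.66 ± 0.23, adjusted p = 2.26e-06). S100a10, the annexin A2 partner, had tight groups, at 7.86, 7.96, 7.92 and 8.28 and 4.03, 3.82, 3.91 and 3.84 (-4.12 ± 0.14, adjusted p = 1.71e-07), and its day 14 level differed from sham by 0.13 log2 (adjusted p = 0.84). These 4 genes fell far more than in sham, with TBI minus sham differences of -6.83, -4.48, -4.62 and -3.54 log2 (adjusted p from 9.64e-06 to 0.00534).

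Another 7 of the 12 largest falls ran from -5.78 for Ccl2, the chemokine that draws monocytes, to -4.22 for Tubb6, a tubulin. Between them were Msr1, a macrophage scavenger receptor (-5.01), H19, an imprinted noncoding RNA (-4.75), Prg4, the lubricating proteoglycan lubricin (-4.47), Sdc1, a cell surface proteoglycan (-4.31), and Cd300le (-4.29), with SE from 0.223 to 0.665. Prg4 was the exception in its background: it was also lower at day 14 in sham (-2.38, adjusted p = 0.021), and sham day 1 replicate 1, with choroid plexus RNA, measured 4.84 against 1.52 in the other sham day 1 library. Ccl2 measured 5.47, 7.50, 6.23 and 5.44 at day 1 and 1.56, -0.80, -0.51 and 1.34 at day 14, and Msr1 remained 4.0 log2 above sham at day 14 (adjusted p = 0.00461).

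The largest rises included genes of surface receptors on immune cells and genes of other kinds. Plk5, of the polo-like kinase family, measured 2.50, 2.51, 2.99 and 2.60 at TBI day 1 and 6.57, 6.86, 6.0 and 6.32 at TBI day 14 (14.2-fold, 3.83 ± 0.22 log2, adjusted p = 4.26e-06). It also rose in sham (1.81, adjusted p = 0.00282), and the TBI rise was larger by 2.02 (adjusted p = 0.0083). Cd4, the co-receptor of helper T cells, which rat macrophages and microglia also carry, measured 1.94, 2.52, 1.98 and 2.26 and 5.44, 4.60, 5.03 and 6.10 (3.23 ± 0.31, adjusted p = 8.84e-05). Sham Cd4 lay at 1.83 to 3.26 with no called change over time (0.02), so that Cd4 at TBI day 14 was 2.69 log2 above its sham (adjusted p = 0.000127). Cd22, a sialic acid-binding receptor, measured 3.44, 2.78, 2.71 and 2.71 and 5.15, 4.72, 4.99 and 6.23 (2.46 ± 0.34), and stood 3.55 above sham at day 14. Cd84, a receptor of the SLAM family, rose by 2.56 ± 0.37, and Fcrl2, a receptor related to those of immunoglobulins, by 2.62 ± 0.46, each beyond its sham change (2.88 and 3.0 log2, adjusted p = 0.0117 and 0.0156).

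Btbd17 and Gdf10, a growth factor of the BMP family, rose by 2.82 and 2.51 log2, and both differed from sham in their change (adjusted p = 0.0192 and 0.0366) but not at day 14, where they lay 0.02 and -0.27 log2 from it (adjusted p = 0.992 and 0.858). The difference in change of Btbd17, 2.19 log2, was 1.41 without sham day 1 replicate 1, which held choroid plexus RNA. That of Gdf10 lost its call without replicate 1, 2 or 3 of sham day 14 (adjusted p = 0.0731, 0.065 and 0.0571). It was also lost without replicate 1, 2 or 4 of TBI day 14 (0.067, 0.0626 and 0.0686). Col11a2, a fibrillar collagen chain, rose by 2.73 and also in sham (1.53, adjusted p = 0.0268). Siglec5, another sialic acid receptor, and RT1-T24-3, a class I MHC gene, both with close paralogs, rose by 2.76 and 2.50 log2. Cd3e, the T cell receptor chain, measured -0.95, 0.05, -0.04 and 3.32 at day 1, with replicate 4 far above the rest, and 4.37, 3.99, 4.25 and 3.90 at day 14 (2.53 ± 0.77, adjusted p = 0.0268). Its levels at sham day 14 were 4.33, 2.71, 2.75 and 3.54, and the rise was 4.53 log2 without TBI day 1 replicate 4. It lost its call without TBI day 1 replicate 2 or 3 or TBI day 14 replicate 1 or 3 (adjusted p = 0.0689, 0.0646, 0.0582 and 0.0519), and without the choroid plexus pair (adjusted p = 0.103).

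**Figure D3:**
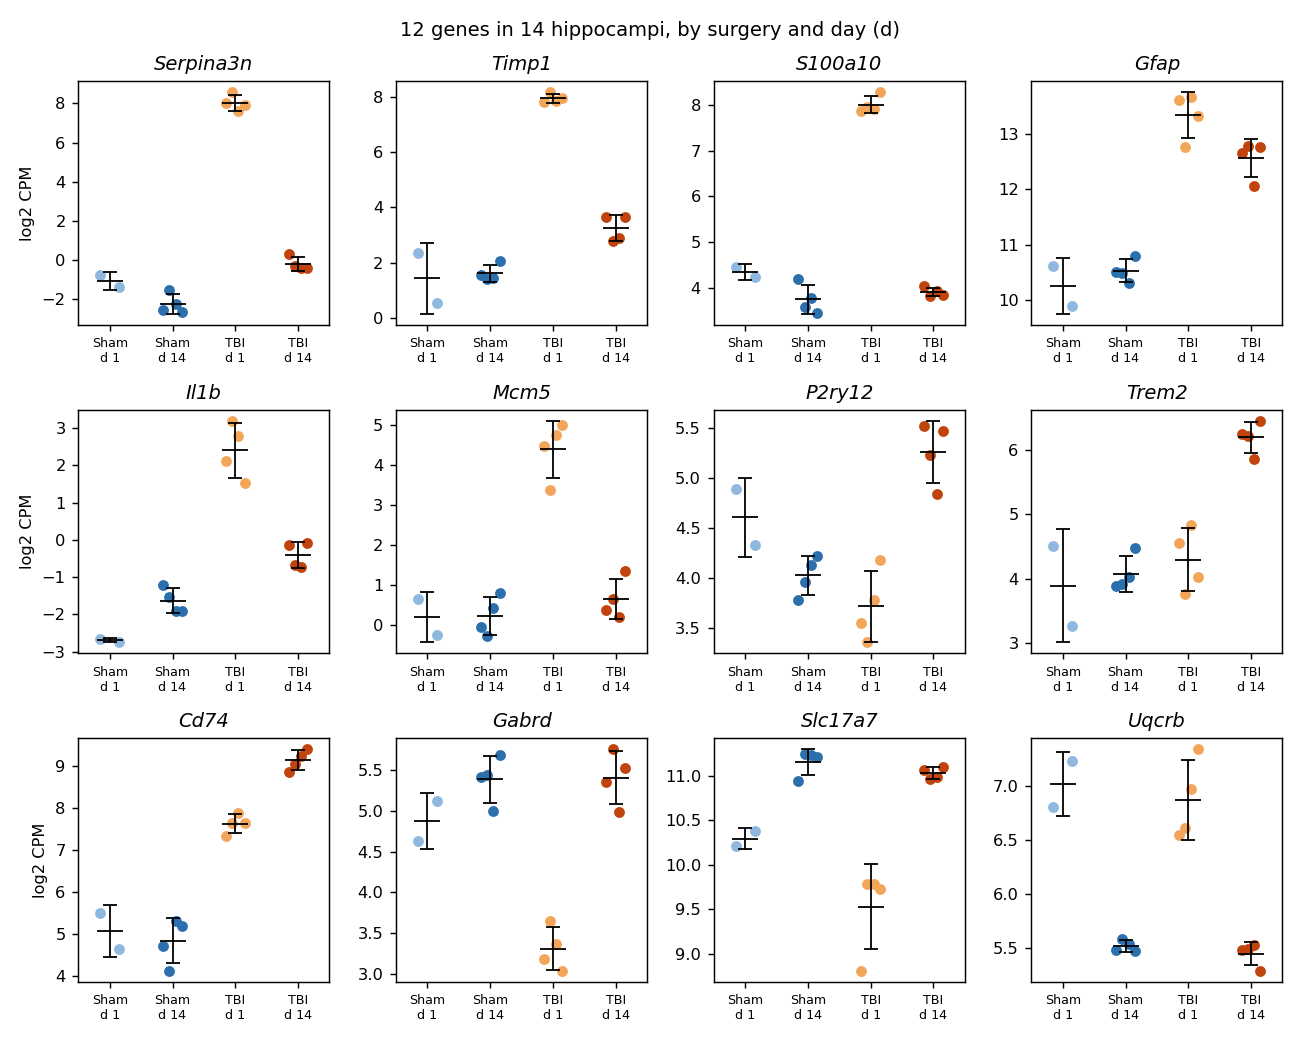
Level of 12 genes (y axis, log2 CPM) in each of the 14 libraries, by surgery and day (x axis); points are libraries, horizontal lines are group means and bars are SD, and the y axes differ between panels. Serpina3n, Timp1, S100a10, Il1b and Mcm5 are highest at TBI day 1, P2ry12, Trem2 and Cd74 at TBI day 14, Gabrd and Slc17a7 are lowest at TBI day 1, Gfap stays above sham at TBI day 14, and Uqcrb is lower at day 14 in both surgeries.

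Reactive astrocyte genes were lower at day 14. Of 20 tested, 15 fell and 1 rose (median -1.94 log2, against -0.02 over all tested genes), 11 fell beyond the sham change, and 12 were still above sham at day 14, where 4.07% of all genes were higher and 0.365% lower. The last comparison shares the TBI day 14 libraries. Hspb1, a small heat shock protein of reactive astrocytes, measured 9.0, 9.11, 8.95 and 8.81 at day 1 and 5.26, 4.80, 4.93 and 5.57 at day 14 (-3.80 ± 0.19, adjusted p = 2.26e-06). Gfap, the astrocyte intermediate filament, fell far less: it measured 13.63, 12.77, 13.67 and 13.33 at day 1 and 12.66, 12.78, 12.06 and 12.77 at day 14, groups that overlap (-0.80 ± 0.23, adjusted p = 0.0218). Its call was lost without TBI day 1 replicate 3 or TBI day 14 replicate 1 or 3 (adjusted p = 0.0592, 0.0517 and 0.0538), and without the choroid plexus pair (adjusted p = 0.132). Gfap at day 14 remained 2.06 log2 above sham (adjusted p = 7.26e-05). The 1 member that rose was Synm, an intermediate filament partner (0.62 ± 0.14, adjusted p = 0.00679).

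Genes of resting astrocytes moved little. Of 19 tested, 3 fell and 1 rose, the number that rose was 4 without TBI day 1 replicate 1, and 1 fell without the choroid plexus pair. Glul, which makes glutamine from glutamate, was among those that fell, at 11.68 ± 0.25 and 10.36 ± 0.17 (mean ± SD, n = 4 each; -1.33 ± 0.17 SE, adjusted p = 0.000348), with a sham fall of 0.93 log2 (adjusted p = 0.00573). Aqp4, the water channel of astrocyte endfeet, measured 10.31 ± 0.15 at day 1 and 10.04 ± 0.30 at day 14 (mean ± SD, n = 4 each), a difference of -0.25 ± 0.17 SE that did not pass the test (adjusted p = 0.268).

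Acute cytokine and chemokine genes fell, with 9 of 18 tested lower and 2 higher (median -0.98), 6 lower and 2 higher beyond sham. Il1b, the inflammasome-processed interleukin, measured 2.11, 3.20, 2.78 and 1.53 at day 1 and -0.15, -0.66, -0.73 and -0.08 at day 14 (-3.09 ± 0.41, adjusted p = 0.000451). The values at day 14 were above those of all 6 sham libraries, of which the highest was -1.21, but the difference from sham day 14 did not pass the test (1.57, adjusted p = 0.0904). Tnf fell from 1.98, 2.38, 2.02 and 1.68 to -0.38, -0.31, -0.08 and -0.16 (-2.40 ± 0.28, adjusted p = 0.000215), and differed from sham by 0.13 log2 at day 14 (adjusted p = 0.945). Cxcl1, which attracts neutrophils, had 253, 478, 240 and 333 reads at day 1 and 12, 1, 1 and 4 at day 14 (-5.79 ± 0.55, adjusted p = 8.34e-05). Il1a, the companion of Il1b, moved the other way, with 4, 5, 16 and 12 reads at day 1 and 22, 38, 35 and 49 at day 14 (2.24 ± 0.45, adjusted p = 0.00352), and its change differed from sham by 2.68 (adjusted p = 0.034). That difference lost its call without replicate 2, 3 or 4 of sham day 14 (adjusted p = 0.0675, 0.0541 and 0.0765). The same held without TBI day 1 replicate 2 (0.0523) or TBI day 14 replicate 2 or 4 (0.0641 and 0.0686). Cx3cl1, the neuronal ligand of the microglial fractalkine receptor, was the other member that rose (7.96, 8.53, 8.83 and 8.80 to 9.79, 9.89, 9.69 and 9.84, 1.24 ± 0.18, adjusted p = 0.000581). Il18 differed by -0.43 ± 0.16 (adjusted p = 0.0532) and stood 1.04 above sham at day 14 (adjusted p = 0.00112).

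The gp130 and STAT3 list fell in part, with 8 of 15 tested lower (5 without the choroid plexus pair) and 1 higher, the latter lost without TBI day 14 replicate 2 or 4. The ligand Clcf1 is a member of the cytokine list above and not of this one. It fell from 4.98, 5.54, 4.70 and 4.49 to 3.30, 2.69, 2.48 and 2.61 (-2.20 ± 0.27, adjusted p = 0.000271), while in sham it rose (2.65, adjusted p = 0.0129). Among receptors, Osmr, for oncostatin M, fell by 3.16 ± 0.40 log2 and differed from sham by 0.59 at day 14 (adjusted p = 0.573). The transducer Stat3 measured 8.03, 8.57, 7.91 and 7.87 at day 1 and 6.54, 6.39, 6.36 and 6.73 at day 14 (-1.61 ± 0.18, adjusted p = 0.000158). Targets Socs3, the feedback inhibitor, and Bcl3 fell by 3.33 and 2.26 log2 and stayed 2.09 and 2.09 above sham at day 14 (adjusted p = 0.00647 and 0.000315).

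Markers of neutrophils and monocytes were lower at day 14, several of them near the detection limit. Of 13 tested, 9 fell and none rose (0 unadjusted, 0 by limma-voom and 0 by DESeq2) (median -4.79 log2). S100a8, of the calprotectin complex, had 127, 368, 166 and 75 reads in the day 1 libraries and 0, 1, 4 and 1 at day 14 (adjusted p = 0.00012). Its partner S100a9 had 287, 561, 469 and 125 reads and 8, 14, 11 and 8 (-4.79 ± 0.47, adjusted p = 9.61e-05). Cxcr2, the receptor of Cxcl1, had 52, 211, 91 and 46 reads at day 1 and 0, 0, 2 and 1 at day 14, at least 25.6-fold lower against a limit of 3 reads per library. In the 6 sham libraries S100a8, S100a9 and Cxcr2 reached at most -1.41, -0.75 and -2.23 log2 CPM. The summed markers of blood cells fell between the same groups, as given above. Hba1, an alpha globin whose paralogs share reads, measured 8.65, 8.39, 9.39 and 7.99 at day 1 and 6.45, 6.48, 6.54 and 5.83 at day 14 (-2.35 ± 0.29, adjusted p = 0.000276), and was also lower at day 14 in sham (-1.43, adjusted p = 0.0225). In all, 5 of 6 blood cell markers fell.

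Lymphocyte markers did not move together: 4 of 11 tested T cell markers rose and 3 fell. Cd8a, the co-receptor of cytotoxic T cells, had 48, 53, 146 and 88 reads at day 1 and 4, 10, 8 and 8 at day 14 (-3.16 ± 0.45, adjusted p = 0.000578). Cd2, an adhesion receptor of T cells, had 25, 152, 68 and 54 reads and 2, 0, 5 and 1 (adjusted p = 0.000714). These falls stand beside the rises of Cd4 and Cd3e given above, and the number that rose was 2 without TBI day 14 replicate 1 and 2 without the choroid plexus pair. Among leukocyte adhesion genes, 6 of 11 fell and 1 rose, with Itga5, the integrin that binds fibronectin, falling by 2.37 ± 0.22 log2 (adjusted p = 8.03e-05).

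Resting microglia genes rose. Of 19 tested, 10 were higher at TBI day 14 and 1 lower (median 0.68), 8 rose beyond sham (5 by limma-voom), and 13 stood above sham at day 14. P2ry12, the purine receptor of ramified microglia, measured 3.56, 3.36, 3.78 and 4.18 at day 1 and 5.51, 5.23, 4.84 and 5.47 at day 14 (1.54 ± 0.21, adjusted p = 0.00047). At day 1 its values overlapped those of sham day 14 (3.79, 3.96, 4.14 and 4.23), and at day 14 all 4 were higher than those. The TBI minus sham difference of P2ry12 (2.135 log2) was larger than its rise in TBI, so its estimated change in sham was a fall. Sham day 14 therefore does not give the sham level at day 1. P2ry13, Slco2b1 and the fructose transporter Slc2a5 rose by 1.71, 1.59 and 1.93 log2 (adjusted p from 9.92e-05 to 0.000522). Csf1r, the receptor that microglia need to survive, measured 7.71, 7.70, 7.81 and 7.45 and 8.96, 8.60, 8.53 and 9.36 (1.23 ± 0.19, adjusted p = 0.000871). The TBI minus sham differences of Slc2a5 and Csf1r, 1.52 and 1.17 log2, were 0.89 and 0.76 without sham day 1 replicate 1, which held choroid plexus RNA. With 1 sham day 1 library left in that fit, whether these 2 genes exceed the sham change is not settled. The member that fell was Spi1, the myeloid transcription factor PU.1 (-0.54 ± 0.14, adjusted p = 0.0135), which was still 1.88 above sham at day 14. Its fall lost its call without the choroid plexus pair (-0.37, adjusted p = 0.184) and with the choroid plexus score as a covariate (adjusted p = 0.0999).

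Genes of phagocytic and disease-associated microglia split. Of 22 tested, 4 rose and 13 fell from day 1 to day 14, while 16 were above sham at day 14. Trem2, the lipid-sensing receptor, measured 4.55, 3.76, 4.84 and 4.02 at day 1 and 6.25, 6.22, 5.87 and 6.46 at day 14 (1.86 ± 0.24, adjusted p = 0.000341). Its adaptor Tyrobp fell instead, from 6.39, 6.61, 6.86 and 6.21 to 5.93, 5.91, 5.88 and 6.16 (-0.56 ± 0.15, adjusted p = 0.0134), and Trem2 and Tyrobp stood 2.12 and 2.0 log2 above sham at day 14. The fall of Tyrobp lost its call without the choroid plexus pair (-0.49, adjusted p = 0.145) and with the covariate (adjusted p = 0.087). Apoe, which carries lipid between cells, rose by 1.07 ± 0.18 (adjusted p = 0.00166). The genes that fell include lipid uptake and storage genes: the fatty acid receptor Cd36 had 38, 170, 135 and 137 reads at day 1 and 0, 1, 2 and 6 at day 14 (adjusted p = 0.000269). The lipid droplet coat gene Plin2 fell by 1.86 ± 0.22 log2 and the fatty acid carrier Fabp5 by 1.14 ± 0.12 (adjusted p = 0.000232 and 0.000152).

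Antigen presentation by MHC class II rose, with 6 of 9 tested higher (3 without the choroid plexus pair) and none lower (0 unadjusted, 0 by limma-voom and 0 by DESeq2), and 8 above sham at day 14. Cd74, the invariant chain, measured 7.33, 7.63, 7.87 and 7.64 at day 1, 8.86, 9.05, 9.22 and 9.40 at day 14 and 4.14 to 5.51 in the 6 sham libraries. The day 14 values lay above all day 1 values (1.52 ± 0.15, adjusted p = 0.000108), and these above all sham values. RT1-Da, a class II alpha chain, rose by 0.87 ± 0.21 (adjusted p = 0.00839, and 0.0591 without the pair) and Ctss, the protease that trims Cd74, by 1.24 ± 0.24 (adjusted p = 0.0028). Class I genes moved the other way: 6 of 10 fell and 1 rose. B2m, the light chain, fell from 10.29, 10.65, 10.61 and 10.54 at day 1 to 9.63, 9.64, 9.37 and 9.91 at day 14 (-0.88 ± 0.14, adjusted p = 0.0013), and by 0.89 log2 in sham (adjusted p = 0.00994). Psme1, a proteasome activator, fell by 1.10, and Tapbp, which loads peptide onto class I, rose by 0.69, with a sham rise of 0.78 (adjusted p = 0.0173).

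Complement, oxidase and lysosomal genes each held members of both directions. Of 20 complement genes tested, 4 rose and 6 fell (3 without the choroid plexus pair), and 14 were above sham at day 14. The shares that rose and fell, 20% and 30%, stand against 15.5% and 20.5% of all tested genes. C3, the central component, measured 6.27, 5.84, 6.48 and 6.45 at day 1 and 8.60, 8.16, 7.93 and 8.73 at day 14 (2.11 ± 0.21, adjusted p = 9.92e-05), with a smaller change in sham (difference 1.67, adjusted p = 0.00916), and the convertase component C2 rose by 1.73. The receptors fell, C5ar1 by 2.42 ± 0.24 and C3ar1 by 1.55 ± 0.25 log2. Of 18 Fc receptor and phagocyte oxidase genes, 11 fell (6 without the choroid plexus pair) and 1 rose, and a pair of cytosolic oxidase subunits went opposite ways. Ncf4 fell from 5.16, 4.55, 4.74 and 4.05 to 2.66, 2.46, 2.54 and 2.48 (-2.17 ± 0.24, adjusted p = 0.000158), while Ncf1 rose from 4.51, 4.41, 4.88 and 4.45 to 5.86, 5.65, 5.71 and 6.14 (1.28 ± 0.15, adjusted p = 0.000269).

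Among lysosomal genes, 11 of 24 rose and 1 fell. Npc2, which hands cholesterol out of the lysosome, measured 6.44, 6.42, 6.93 and 6.33 at day 1 and 8.44, 8.35, 8.37 and 8.91 at day 14 (1.99 ± 0.18, adjusted p = 6.52e-05). Laptm5, a lysosomal membrane protein of blood-lineage cells, and the protease Ctsd rose by 1.24 and 1.20 log2, and Ctsc, another protease, was the member that fell (-1.07 ± 0.21, adjusted p = 0.0033, and 0.057 without the choroid plexus pair). Interferon response genes showed no common direction: 4 of 24 rose and 3 fell, to be read against 15.5% and 20.5% of all genes, and 12 were above sham at day 14. Without TBI day 14 replicate 4, the library with the highest interferon sum (9.86, against 8.84 to 9.08), 2 rose and 5 fell, and 2 rose without TBI day 1 replicate 4. Irf7, the interferon-induced transcription factor, measured 3.12, 3.60, 3.15 and 3.13 at day 1 and 3.97, 3.92, 3.61 and 5.03 at day 14 (0.98 ± 0.29, adjusted p = 0.0242, and 0.054 without that library, 0.0603 and 0.0546 without replicate 3 or 4 of TBI day 1). Ifi27 and Bst2 rose by 0.59 and 0.76 log2 (adjusted p = 0.00422 and 0.0436, the latter call lost without any 1 of 7 of the 8 libraries, with adjusted p up to 0.114), and the call of Ifi27 was lost without the choroid plexus pair (adjusted p = 0.064). Ifitm3, which blocks viral entry, fell from 5.87, 6.03, 5.87 and 5.50 to 4.58, 3.98, 3.82 and 4.63 (-1.54 ± 0.21, adjusted p = 0.000463). Ifit1 had 36, 107, 76 and 21 reads at day 1 and 0, 1, 0 and 0 at day 14, at least 15.6-fold lower against the same limit of 3 reads.

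The promoters of Ifitm3, which fell, and Irf7, which rose, are shown because both hold the same interferon-stimulated response element, searched as GAAANNGAA on both strands and printed in capitals. The stretches come from RefSeq promoter windows of the build GRCr8, read along the strand of each gene, and end at or before the transcription start.
Ifitm3, chr1:205541759-205541852, minus strand: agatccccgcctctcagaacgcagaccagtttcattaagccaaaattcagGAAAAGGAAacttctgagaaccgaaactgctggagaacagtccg
Irf7, chr1:205800033-205800141, minus strand: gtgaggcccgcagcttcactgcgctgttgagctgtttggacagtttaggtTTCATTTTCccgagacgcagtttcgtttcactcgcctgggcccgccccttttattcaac
Windows of 300 bases were found for 16 of the 24 tested interferon genes, too few to describe the list, and 11 of the 16 held the element, against 9.50% of 27457 windows. All 3 windows of members that rose, both of members that fell and 6 of 11 of the others held it.

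Stress genes fell. Of 14 tested heat shock genes, 8 fell and none rose (0 unadjusted, 0 by limma-voom and 0 by DESeq2). In sham 3 fell, and no change differed from sham downward (4 unadjusted, 0 by limma-voom and 3 by DESeq2). Cryab, a small chaperone of lens and glia, measured 6.83, 7.24, 6.76 and 6.18 at day 1 and 5.07, 5.24, 5.45 and 5.51 at day 14 (-1.48 ± 0.21, adjusted p = 0.000578). Hspb8 and its partner Bag3, which sort damaged proteins for autophagy, fell by 1.49 and 0.98 log2, and Hspe1, the mitochondrial cochaperonin, by 1.45, beside a called sham fall of 0.86 (adjusted p = 0.0182). Their promoters are shown with the heat shock element GAANNTTC, the same on both strands, in capitals.
Hspe1, chr9:64084217-64084324, plus strand: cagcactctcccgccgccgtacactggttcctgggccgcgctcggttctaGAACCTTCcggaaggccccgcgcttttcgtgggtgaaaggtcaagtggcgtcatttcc
Bag3, chr1:192533278-192533385, plus strand: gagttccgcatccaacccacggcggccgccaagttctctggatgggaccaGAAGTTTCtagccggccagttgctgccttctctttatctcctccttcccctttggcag
Hspb8, chr12:45837235-45837307, plus strand: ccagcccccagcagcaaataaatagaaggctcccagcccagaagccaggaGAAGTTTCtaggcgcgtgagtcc
The element lay in 7 of the 10 heat shock genes with a window, 4 of 6 that fell and 3 of 4 that were not called, against 8.34% of all 27457 windows, and 10 of 14 members are too few to describe the list.

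Genes of the NRF2 and oxidative stress list fell in 11 of 16 cases (4 without the choroid plexus pair) and rose in none (0 unadjusted, 0 by limma-voom and 0 by DESeq2). Mt1a, a metallothionein, measured 4.62, 5.39, 3.94 and 4.82 at day 1 and 1.86, 1.73, 1.69 and 2.13 at day 14 (-2.96 ± 0.29, adjusted p = 9.92e-05). Hmox1, which degrades heme, fell from 6.18, 7.34, 6.64 and 6.09 to 4.94, 4.55, 4.53 and 4.85 (-1.93 ± 0.26, adjusted p = 0.000459) and was still 1.95 above sham at day 14, and blood markers fell between the same groups. Of 18 endoplasmic reticulum stress genes, 4 fell, a share near that over all genes, and 2 rose (2 and 0 without the choroid plexus pair). Atf4, their regulator, fell by 1.31 ± 0.13 log2 in TBI and by 0.68 in sham (adjusted p = 9.74e-05 and 0.0079). Ribosome biogenesis genes fell in 16 of 26 cases (10 without the choroid plexus pair) and rose in none (0 unadjusted, 0 by limma-voom and 0 by DESeq2), and in sham 6 fell and 3 rose (median -0.08). Ncl, nucleolin, measured 7.93, 8.49, 8.33 and 8.55 and 7.37, 6.95, 7.14 and 7.03 (-1.22 ± 0.15, adjusted p = 0.000309) with a sham fall of 1.05 (adjusted p = 0.00422), and Fbl, fibrillarin, fell by 1.34 in TBI and 0.53 in sham.

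Immediate early genes moved in both directions. Of 25 tested, 11 fell (7 without the choroid plexus pair) and 3 rose. Fos measured 5.18, 5.54, 4.97 and 4.43 at day 1 and 3.88, 3.70, 3.25 and 4.10 at day 14 (-1.33 ± 0.25, adjusted p = 0.00265), and its change did not pass the test against sham (-1.26, adjusted p = 0.0838). Fosl1, of the same AP-1 family, Klf6, a zinc finger factor, and Myc fell by 2.35, 2.26 and 1.96 log2 (adjusted p from 3.28e-05 to 0.000367), each beyond sham in edgeR. The difference of Fosl1 from sham lost its call in limma-voom (adjusted p = 0.0736). Without the 3 libraries with choroid plexus RNA, the differences of these 3 genes from sham shrank to -2.09, -1.38 and -1.13 log2. That fit keeps 1 sham day 1 library, so whether they exceed the sham change there is not settled. Arc and Egr4, which neurons induce with synaptic activity, as they do Fos, rose instead. Arc measured 5.0, 5.32, 6.13 and 5.78 at day 1 and 6.42, 7.39, 6.78 and 7.39 at day 14 (1.44 ± 0.27, adjusted p = 0.00274), against 6.83 to 7.70 in sham, and Egr4 rose by 1.51 ± 0.23 (adjusted p = 0.000794).

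Cell death and cell cycle genes were lower at day 14. Of 30 cell death genes, 19 fell (12 without the choroid plexus pair) and none rose (0 unadjusted, 0 by limma-voom and 0 by DESeq2). Tnfrsf12a, the receptor of TWEAK, measured 5.36, 6.40, 5.42 and 5.40 at day 1 and 2.36, 2.93, 2.73 and 2.20 at day 14 (-3.15 ± 0.28, adjusted p = 6.25e-05). The damage-induced gene Gadd45a and the calpain gene Capn2 fell by 1.91 and 1.05 log2 (adjusted p = 0.00017 and 0.000153). Bax, which opens the mitochondrial outer membrane, measured 5.06 ± 0.10 at day 1 and 4.86 ± 0.16 at day 14 (mean ± SD, n = 4 each), and Nlrp3, the inflammasome sensor, 3.60 ± 0.19 and 3.70 ± 0.52. Neither difference passed the test (-0.20 ± 0.13 and 0.16 ± 0.25 SE, adjusted p = 0.258 and 0.634), and Nlrp3 stood 1.63 above sham at day 14 (adjusted p = 0.000646).

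Of 33 cell cycle genes, 23 fell (12 without the choroid plexus pair) and none rose (0 unadjusted, 0 by limma-voom and 0 by DESeq2), with a median of -1.38 log2, and 7 fell beyond sham. Mcm5, part of the replicative helicase, measured 4.47, 3.36, 4.74 and 4.99 at day 1, lowest in replicate 2, and 0.38, 0.65, 0.20 and 1.34 at day 14 (-3.87 ± 0.39, adjusted p = 0.000108). The day 14 values overlapped those of sham (0.64 and -0.25 at day 1 and -0.06, -0.28, 0.43 and 0.80 at day 14). Helicase members Mcm3 and Mcm6 fell by 2.45 and 2.20 log2 (adjusted p = 0.000388 and 8.34e-05).

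**Figure D4:**
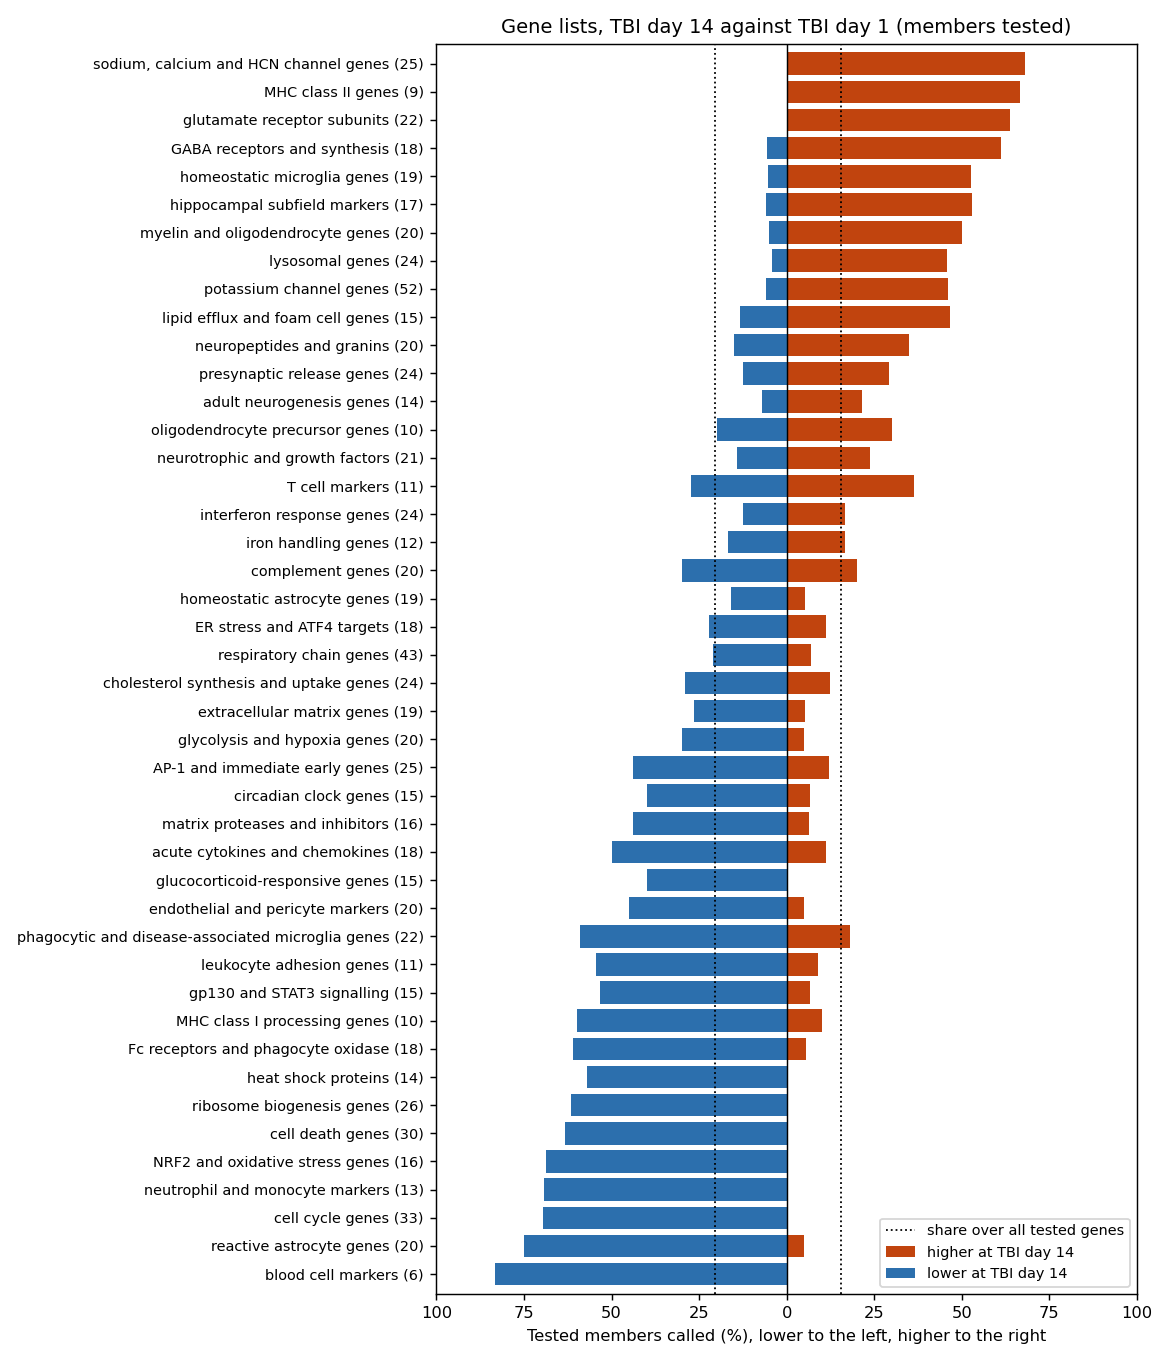
Share of the tested members of 44 gene lists called lower (left, blue) or higher (right, red-brown) at TBI day 14 than at TBI day 1 (x axis, percent; number tested in brackets on the y axis); dotted lines mark the shares over all tested genes, 20.5% lower and 15.5% higher. Blood, reactive astrocyte, cell cycle and stress lists extend to the left, and ion channel, receptor, MHC class II and resting microglia lists to the right; choroid plexus markers are left out.

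Vessel genes and those of matrix proteases and inhibitors were also lower in part. Of 20 endothelial and pericyte markers, 9 fell (4 without the choroid plexus pair), and the 1 that rose lost its call without any 1 of 5 libraries. Vwf, the endothelial clotting factor, measured 8.76, 7.58, 7.93 and 7.95 at day 1, highest in replicate 1, and 6.21, 6.38, 5.90 and 6.26 at day 14 (-1.94 ± 0.25, adjusted p = 0.00039), and Cdh5, the endothelial cadherin, fell by 1.46 ± 0.21. Of 19 matrix genes, 5 fell (3 without the choroid plexus pair) and 1 rose. The share that fell, 26.3%, was near the 20.5% over all tested genes. Fn1, fibronectin, measured 8.75, 9.31, 8.57 and 8.93 at day 1 and 5.88, 5.84, 5.35 and 6.20 at day 14 (-3.07 ± 0.22, adjusted p = 2.25e-05). Sham day 14 measured 6.38, 6.71, 6.14 and 6.55, and 3 of the 4 TBI day 14 libraries lay below all of these, a difference that did not pass the test (-0.61, adjusted p = 0.182). Of 16 matrix proteases and inhibitors, 7 fell and 1 rose. Mmp9, the gelatinase of neutrophils and neurons, fell from 4.11, 4.49, 3.83 and 4.16 to 0.82, 2.05, 1.43 and 2.1 (-2.51 ± 0.29, adjusted p = 0.000209), and the other gelatinase Mmp2 rose from 3.02, 2.55, 3.66 and 3.74 to 4.73, 4.53, 5.32 and 4.66 (1.53 ± 0.27, adjusted p = 0.00186). Mmp2 was also high in sham day 1 replicate 1, at 5.10 against 2.65 in the other, and in TBI day 14 replicate 3, libraries with choroid plexus RNA.

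Receptor and channel genes of neurons rose from day 1 to day 14. Of 22 glutamate receptor subunits, 14 rose and none fell (0 unadjusted, 0 by limma-voom and 0 by DESeq2), with a median of 0.77 log2. In sham 5 rose, none rose further in TBI than in sham (5 unadjusted, 0 by limma-voom and 1 by DESeq2), and at day 14 1 lay below sham. Grik4, a kainate receptor subunit, measured 5.21, 5.94, 6.21 and 5.69 at day 1 and 7.47, 7.39, 7.39 and 7.38 at day 14 (1.61 ± 0.18, adjusted p = 0.000172). Sham Grik4 rose by 0.71 (adjusted p = 0.0277), and the difference between both changes did not pass the test (0.90, adjusted p = 0.063). Gria1, an AMPA receptor subunit, measured 6.23, 7.68, 7.61 and 8.37 at day 1, lowest in replicate 1, and 9.35, 8.92, 9.07 and 9.17 at day 14 (1.49 ± 0.33, adjusted p = 0.00634). Grin2c, an NMDA receptor subunit, rose by 1.46 ± 0.27 in TBI and by 1.05 in sham (adjusted p = 0.00253 and 0.0312).

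Of 18 genes of GABA receptors and synthesis, 11 rose (6 without the choroid plexus pair) and 1 fell. Gabrd, the delta subunit of extrasynaptic receptors, measured 3.18, 3.65, 3.37 and 3.04 at day 1 and 5.35, 5.76, 4.99 and 5.53 at day 14 (2.12 ± 0.20, adjusted p = 8.01e-05). It was the member of the list whose rise exceeded that of sham (1.60 ± 0.30, adjusted p = 0.0101), and at day 14 it lay 0.03 log2 from sham. Of 25 sodium, calcium and HCN channel genes, 17 rose and none fell (0 unadjusted, 0 by limma-voom and 0 by DESeq2). In sham 7 rose, and none rose further in TBI (5 unadjusted, 0 by limma-voom and 1 by DESeq2). Cacna1h, a T-type calcium channel, measured 7.0, 7.27, 6.99 and 7.22 and 8.94, 9.21, 8.64 and 8.89 (1.81 ± 0.15, adjusted p = 4.23e-05) and rose by 1.38 in sham (adjusted p = 0.00196). Of 52 potassium channel genes, 24 rose and 3 fell. The rises numbered 15 with TBI day 14 replicate 4 left out and 10 with the choroid plexus pair left out. The inward rectifiers Kcnj4 and Kcnj9 rose by 1.71 and 1.11 log2, Kcnj9 beyond sham (adjusted p = 0.0164). Kcnt1, a sodium-activated channel, fell, but from 8.30, 7.28, 6.50 and 5.81 to 5.33, 6.27, 5.51 and 5.80, groups that overlap (-1.52 ± 0.47, adjusted p = 0.0275). The call did not hold when replicate 2 of TBI day 1 was left out (adjusted p = 0.0511), when replicate 1, 3 or 4 of TBI day 14 was (0.076, 0.07 and 0.0629), without the choroid plexus pair (0.0979) or in limma-voom (0.0571), and the fall was 0.89 log2 without TBI day 1 replicate 1 (adjusted p = 0.0363).

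Markers of hippocampal neurons followed the same course and were lowest in TBI day 1 replicate 1. Of 17 subfield markers tested, 9 rose and 1 fell. The rises numbered 4 without replicate 2 of TBI day 1, 5 without replicate 1 of TBI day 14 and 5 without the choroid plexus pair. The dentate granule cell genes C1ql2, a synaptic organizer, and Pdyn, the precursor of dynorphin, were far lower in TBI day 1 replicate 1 than in the other libraries. C1ql2 measured 1.29, 4.48, 4.43 and 5.19 at day 1 and 6.59, 6.71, 6.29 and 6.65 at day 14 (2.22 ± 0.54, adjusted p = 0.0093), and Pdyn 1.05, 5.20, 4.36 and 4.99 and 6.47, 6.36, 6.78 and 6.45 (2.02 ± 0.57, adjusted p = 0.0193, and 0.0524 without TBI day 1 replicate 3 and 0.0945 without the choroid plexus pair). Wfs1, a marker of field CA1, rose by 1.38 ± 0.27 in TBI and measured 8.41 and 6.16 and 9.07, 8.98, 8.84 and 9.13 in sham, where its change did not pass the test (1.33, adjusted p = 0.0615). Neurod2, a neuronal transcription factor, rose by 1.31, and Pcp4, a calmodulin-binding marker of field CA2, was the member that fell (-0.74 ± 0.16, adjusted p = 0.00461). Dcx, the marker of newborn neurons, measured 5.38 ± 0.26 at day 1 and 5.12 ± 0.21 at day 14 (mean ± SD, n = 4 each) and did not pass the test (adjusted p = 0.217), and 3 of 14 neurogenesis genes rose and 1 fell (1 and 0 without the choroid plexus pair).

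Presynaptic genes were divided, with 7 of 24 rising and 3 falling, and 6 falling without TBI day 1 replicate 1. Slc17a7, which fills vesicles with glutamate, measured 8.81, 9.78, 9.79 and 9.73 at day 1, lowest in replicate 1, and 11.06, 10.96, 10.99 and 11.10 at day 14 (1.46 ± 0.20, adjusted p = 0.000459), and rose by 0.86 in sham (adjusted p = 0.0187). Bsn, a scaffold of the active zone, rose by 1.21 ± 0.16. Syn1, which tethers vesicles, fell by 0.54 ± 0.12 in TBI and by 1.02 ± 0.16 in sham (adjusted p = 0.00724 and 0.00193, the former 0.0794 without the choroid plexus pair). Among neuropeptide and granin genes, 7 of 20 rose and 3 fell, with 4 rising without TBI day 14 replicate 4 and 1 without the choroid plexus pair. Trh, the precursor of thyrotropin-releasing hormone, fell from 4.51, 5.15, 2.61 and 5.85 to 1.11, 2.56, 2.1 and 1.8 (-2.97 ± 0.58, adjusted p = 0.00311), beyond sham (adjusted p = 0.0251). Of 21 growth factor genes, 5 rose (3 without the choroid plexus pair) and 3 fell. The neurotrophin Ntf3 rose by 1.70 ± 0.30 and Hbegf, a ligand of the EGF receptor, fell by 2.42 ± 0.31 (adjusted p = 0.00176 and 0.000342).

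Myelin genes rose from uneven day 1 levels. Of 20 tested, 10 rose and 1 fell (median 0.81), and 1 rose beyond sham. Mal, a myelin proteolipid, rose by 1.51 ± 0.29 log2 (adjusted p = 0.00316), and beyond sham (adjusted p = 0.0371). Its difference from sham lost its call without replicate 1, 2 or 4 of sham day 14 (adjusted p = 0.0804, 0.0822 and 0.0591). The same held without replicate 2 or 3 of TBI day 1 (0.0653 and 0.0515) or any 1 library of TBI day 14 (0.0502 to 0.0722). Mbp, myelin basic protein, measured 13.54, 11.74, 12.49 and 11.29 at day 1 and 13.23, 13.71, 12.63 and 13.49 at day 14, groups that overlap (0.77 ± 0.44, adjusted p = 0.197), but without TBI day 1 replicate 1, the library with the highest level, the rise was 1.39 (adjusted p = 0.00346). Olig2, the lineage transcription factor, fell by 0.50 ± 0.12 in TBI and 0.68 in sham (adjusted p = 0.00799 and 0.0256, the former 0.116 without the choroid plexus pair), and of 10 precursor genes 3 rose (1 without TBI day 14 replicate 1 or 4) and 2 fell.

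Genes of cholesterol synthesis and uptake were lower at TBI day 14 than at sham day 14 in 11 of 24 cases, the only list with more than 1 member below sham at that time among the 45 lists. Over time, 7 fell and 3 rose in TBI, and 3 fell and 3 rose in sham. Hmgcs1, an early enzyme of the pathway, measured 7.80, 8.22, 8.39 and 8.61 at day 1, 7.02, 7.19, 7.38 and 7.27 at day 14 (-1.06 ± 0.16, adjusted p = 0.000852) and 7.99, 8.05, 8.34 and 8.10 at sham day 14, so all TBI day 14 libraries lay below their sham (-0.91, adjusted p = 0.00194). Idi1, the isomerase, fell by 1.43 in TBI and 1.22 in sham. Srebf2, the regulator of the pathway, rose by 0.71 ± 0.12 (adjusted p = 0.00159) and lay 0.42 log2 below sham at day 14.

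Genes of lipid efflux and foam cells rose in part, with 7 of 15 higher and 2 lower (median 0.15 log2). None rose further in TBI than in sham (5 unadjusted, 0 by limma-voom and 1 by DESeq2). None fell further either (1 unadjusted, 0 by limma-voom and 0 by DESeq2). Abca1, which loads cholesterol onto apolipoproteins, measured 5.71, 5.55, 5.33 and 5.77 at day 1 and 6.93, 6.36, 6.25 and 7.40 at day 14 (1.21 ± 0.24, adjusted p = 0.00354), and Pltp, a phospholipid transfer protein, rose by 1.57 ± 0.24. Of 12 iron genes, 2 rose and 2 fell (4 rose without TBI day 1 replicate 1). Ftl1, the ferritin light chain, rose by 1.52 in TBI and 1.63 in sham (adjusted p = 0.000278 and 0.00216), and Tfrc, the transferrin receptor, measured 6.67, 6.81, 6.81 and 6.59 and 6.74, 7.21, 6.76 and 7.19 (adjusted p = 0.167) but lay 0.83 log2 below sham at day 14 (adjusted p = 0.0025).

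Several lists moved over time in both TBI and sham. For the respiratory chain list, none rose less or fell more in TBI (2 unadjusted, 0 by limma-voom and 0 by DESeq2). Of 43 respiratory chain genes, 9 fell and 3 rose in TBI and 9 fell and 3 rose in sham. The share that fell in TBI (20.9%) was near that over all genes (20.5%), whereas the same share in sham stands against 11.3% of all genes, and 14 fell in TBI without TBI day 1 replicate 1. Uqcrb, a subunit of complex III, measured 6.54, 6.61, 6.98 and 7.34 at TBI day 1, 5.48, 5.49, 5.52 and 5.29 at TBI day 14, 6.81 and 7.23 at sham day 1 and 5.48, 5.58, 5.54 and 5.46 at sham day 14. Its change was -1.46 ± 0.17 in TBI and -1.52 ± 0.19 in sham, a difference of 0.06 ± 0.25. Cox6c, of complex IV, fell by 1.09 and 0.74, and Cyc1, of complex III, rose by 0.67 and 0.83, the TBI call of Cyc1 being lost without the choroid plexus pair (adjusted p = 0.108).

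The glycolysis and hypoxia list had 6 of 20 lower in TBI (1 without the choroid plexus pair), 1 higher in TBI and 5 lower in sham. Of 15 clock genes, 1 rose and 6 fell in TBI (2 without the choroid plexus pair) and 5 in sham, among them the nuclear receptors Rorb (by 1.20 and 1.33) and Nr1d1 (by 0.52 and 0.66). The time of day of killing was not given in the sources used here. Of 15 genes that respond to glucocorticoids, 6 fell in TBI (2 without the choroid plexus pair) and 8 in sham, with medians of -0.35 and -0.70. Fkbp5, a chaperone of the glucocorticoid receptor, fell by 0.77 ± 0.15 in TBI (adjusted p = 0.00311) and differed by -0.38 in sham (adjusted p = 0.156).

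Choroid plexus markers were called higher at TBI day 14 mainly with the choroid plexus pair included. Of 12 tested, 7 were called higher at TBI day 14, with 2 of the list without overlap, and 11 lower at sham day 14. Without the choroid plexus pair 1 was higher and 2 were lower. Ttr differed by 8.71 ± 2.03 with all 8 libraries and by 0.68 without the pair (adjusted p = 0.299). Folr1, a folate receptor of the choroid plexus, measured -1.27, -0.76, 0.92 and -0.74 at day 1 and 1.88, 3.52, 5.79 and 1.86 at day 14 (4.57 ± 0.98, adjusted p = 0.00495). Its 4 day 14 values lay above all day 1 values, and it was called without the pair too (2.21, adjusted p = 0.0452).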

How the data were processed

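RNA-seq counts of ipsilateral hippocampus were analysed for 14 libraries. Per the study's methods and processing notes, the authors made the deposited whole-number counts per gene with STAR 2.4.2a and featureCounts 1.5.0 on the rat build rn5, from stranded poly-A libraries. The deposited peak lists were not used here. No column lacked a sample.

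The 8 TBI libraries were fitted with edgeR 4.0.16 (R 4.3.3): TMM factors, filterByExpr with a minimum count of 10, the quasi-likelihood test, two-sided, with Benjamini-Hochberg adjustment over all tested genes at 0.05. This filter kept 12422 genes and set aside 4750. A further fit of all 14 libraries, with 1 mean per group, gave the sham change, its difference from the TBI change and the day 14 comparison with sham. SE is the size of the log2 fold change divided by the square root of the F statistic. For levels, log2 CPM values were made with 2 as the prior count, and bounds use a limit of 3 reads per library, which covers counting error only. The fits were tested on simulated data with known changes.

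The named genes are the 12 largest rises and 12 largest falls without overlap and with a mean log2 CPM above 2, and from each list its first gene, the 4 members with the smallest p-value in the direction of more calls and up to 2 called members of the other direction, plus examples from the study's text; the text gives part of them, and some are not reported here. Members and lists were chosen with earlier results of these data known, so no list is independent evidence of its direction. Lists are described by counts and medians, with no set test. Alternatives were limma-voom 3.58.1, DESeq2 1.42.0, other scaling factors and filters, the replicate number as a block, a choroid plexus score as a covariate, leaving out libraries and stricter thresholds; 1 alternative, the TBI minus sham difference without the 3 libraries with choroid plexus RNA, was chosen after seeing the data. Promoter windows of 250 bases before to 50 after the start (RefSeq, GRCr8) matched 9279 of the 12422 tested genes by symbol.

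Same-numbered replicates of both days did not deviate together (correlations -0.11, -0.17, 0.04 and -0.02), so the numbers were not used as pairs.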

Additional observations from a re-analysis of the deposited data

Results flagged for a closer look

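In 432 groups of 4 libraries (144 named genes in 3 groups), 29 held a library whose gap to the nearest other, over the range of the group, passed Dixon's critical value (6.71%, where chance gives about 1 in 20). At sham day 14 the highest library stood apart for Cxcr2 (-2.23 log2 CPM, replicate 4). For Cxcr2 there and Ifit1 at TBI day 14, the other libraries of the group all measured -3.26, the level without reads. With such ties any reads in 1 library give a ratio of 1, and both genes are among the 29. At sham day 14 the lowest library stood apart for Plk5 (5.81 log2 CPM, replicate 3), Cx3cl1 (9.33 log2 CPM, replicate 1), Stat3 (5.73 log2 CPM, replicate 1), Mmp9 (1.83 log2 CPM, replicate 3), Vwf (6.08 log2 CPM, replicate 3), Slc17a7 (10.94 log2 CPM, replicate 1) and Kcnt1 (5.59 log2 CPM, replicate 3). At TBI day 1 the highest library stood apart for Cd22 (3.44 log2 CPM, replicate 1), Irf7 (3.60 log2 CPM, replicate 2), Tnfrsf12a (6.40 log2 CPM, replicate 2) and Atf4 (9.0 log2 CPM, replicate 2). At TBI day 1 the lowest library stood apart for Cd36 (1.05 log2 CPM, replicate 1), RT1-Da (5.04 log2 CPM, replicate 1), Egr4 (2.11 log2 CPM, replicate 1), Mcm3 (3.80 log2 CPM, replicate 2) and Slc17a7 (8.81 log2 CPM, replicate 1). At TBI day 14 the highest library stood apart for Prg4 (1.83 log2 CPM, replicate 1), Bcl3 (3.14 log2 CPM, replicate 1), Npc2 (8.91 log2 CPM, replicate 4), Ctsd (10.70 log2 CPM, replicate 4), Bst2 (4.78 log2 CPM, replicate 4), Ifit1 (-2.62 log2 CPM, replicate 2), Atf4 (7.79 log2 CPM, replicate 3) and Grik4 (7.47 log2 CPM, replicate 1). At TBI day 14 the lowest library stood apart for Gfap (12.06 log2 CPM, replicate 3), Gadd45a (3.12 log2 CPM, replicate 2), Hba1 (5.83 log2 CPM, replicate 4) and Uqcrb (5.29 log2 CPM, replicate 4).

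The change from day 1 to day 14 differed between TBI and sham, by the edgeR test of the difference, for 66 of the named genes, 25 upward and 41 downward. Downward differences of TBI minus sham, in log2, were -6.83 for Serpina3n, -5.10 for Il1b, -4.85 for Clcf1, -4.62 for Timp1, -4.48 for Lcn2, -4.34 for Hspb1, -3.97 for Tubb6, -3.92 for Mcm5, -3.86 for Socs3, -3.62 for Sdc1, -3.55 for H19, -3.54 for S100a10, -3.52 for Ncf4, -3.51 for Cd300le, -3.31 for Osmr, -3.20 for Fn1, -2.93 for Tnfrsf12a, -2.84 for Mmp9, -2.83 for Bcl3, -2.44 for Itga5, -2.32 for Hbegf, -2.29 for Mt1a, -2.23 for Vwf, -2.18 for Mcm6, -1.80 for Plin2, -1.53 for Stat3, -1.49 for Klf6, -1.40 for Myc, -1.20 for Fabp5 and -0.92 for Capn2, and these kept their call without any single library. Calls lost without at least 1 library were those of Cd36 (-7.74), Ccl2 (-6.41), S100a9 (-4.11), Trh (-3.89), Tnf (-2.69), Mcm3 (-2.61), Fosl1 (-2.28), Ifitm3 (-2.07), C5ar1 (-2.01), Hmox1 (-1.79) and Gadd45a (-1.27). Upward differences were 3.21 for Cd4, 2.88 for Cd84, 2.13 for P2ry12, 2.13 for P2ry13, 2.02 for Plk5, 1.67 for C3 and 1.53 for Slco2b1, and these kept their call without any single library. Calls lost without at least 1 library were those of Ttr (17.29), Folr1 (8.68), Fcrl2 (3.0), Il1a (2.68), Mmp2 (2.58), Btbd17 (2.19), Gdf10 (2.16), Npc2 (1.88), Trem2 (1.79), Cd74 (1.74), Mal (1.67), Gabrd (1.60), Arc (1.60), Slc2a5 (1.52), Laptm5 (1.32), Csf1r (1.17), Cx3cl1 (1.01) and Kcnj9 (0.81). Choroid plexus RNA was high in sham day 1 replicate 1 and TBI day 14 replicates 2 and 3. Without these 3 libraries the difference of Mmp2 was 0.76 (adjusted p = 0.368 in edgeR).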

How the results depend on the processing

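Genes higher and lower at TBI day 14 (1928 and 2550) numbered 2092 and 2403 by limma-voom, 2352 and 2690 by DESeq2 and 1564 and 2981 scaled by total counts alone. They numbered 1270 and 1706 with a choroid plexus score as covariate, 844 and 1213 without the choroid plexus pair, 967 and 1546 at an adjusted p under 0.01, and 662 and 914 at a 2-fold change. The last 2 settings only tighten the threshold. Leaving out the pair removes choroid plexus RNA and also leaves fewer samples, which cannot be told apart here. For the covariate the cause was not tested. Leaving out 1 library gave 1408 to 2551 higher and 1933 to 3025 lower, the lowest without TBI day 14 replicate 1 and the highest without TBI day 1 replicate 1. With the replicate numbers as a block, which the design does not pair, the counts were 1607 and 2017, 473 for the TBI minus sham difference and 2783 for sham. That difference (474 genes) gave 278 by limma-voom, 1053 by DESeq2, 276 without the 3 libraries with choroid plexus RNA and 250 to 695 without 1 library, and without sham day 1 replicate 2 its split was 235 upward to 126 downward. The causes were not tested. Sham day 14 against day 1 (2464) ranged over 943 to 3431 without 1 library, lowest without sham day 1 replicate 2, and TBI against sham at day 14 (571) over 400 to 563. Of 144 named genes 137 were called, 131 of them without any single library and 122 under every alternative that gave a value, and of 66 differences from sham 37 and 27. Signs reversed for Nlrp3 (-0.11 without TBI day 14 replicate 4, up to 0.34 without replicate 3), for the difference of Folr1 (-0.55 without sham day 1 replicate 1, up to 9.68 without the other, and -2.89 without the 3 libraries) and for that of Ttr (-0.91 without the 3). List counts of 1 to 3 members moved in several settings. Genes with few reads at day 14 rest on the limit of 3 reads.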
